A study of Mus musculus with 360 samples.

Results

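Atp1b1, Atp1b2 and Atp1b3 encode the beta1, beta2 and beta3 subunits of the Na/K-ATPase, and they are 3 of the 48440 genes of the deposited count matrix. They were chosen by gene symbol, and each symbol has 1 row. The Na/K-ATPase is the pump of the plasma membrane that moves sodium out of the cell and potassium in, at the cost of ATP. Each pump pairs a catalytic alpha subunit with a glycosylated beta subunit, which the alpha subunit needs to fold and to reach the membrane. Atp1b1 is the widely expressed form, Atp1b2 was first described as an adhesion molecule on glia, and Atp1b3 is a further, widely expressed form. In the cochlea the pump is best known from the marginal cells of the stria vascularis, where it takes up potassium that is then secreted into the endolymph.

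The study sorted single cells from the cochlea of mice of 2 genotypes, 180 cells of each. GAP mice were Fbxo2CreERT2::Rosa26-tdTomato::Rosa26-GAP, in which the tamoxifen-inducible Cre recombinase of the Fbxo2 locus switches on tdTomato and an allele with Gfi1, Atoh1 and Pou4f3, transcription factors of hair cell development. Control mice were Fbxo2CreERT2::Rosa26-tdTomato and carried the Cre and the reporter without the GAP allele. Both genotypes were given tamoxifen at 3 weeks and were used at 5 weeks, and cells were dissociated with papain, sorted on tdTomato and EpCAM into 96-well plates and sequenced by SMART-MATQ, a whole-transcript method with unique molecular identifiers (UMIs). Cells therefore come from a gate set by Fbxo2-driven Cre and an epithelial surface marker, and not from the whole cochlea. Well names begin with C or D in GAP cells (92 and 88 cells) and with A or B in control cells (91 and 89 cells). These letters are called plate letters here, and since each holds 1 genotype, letter and genotype cannot be told apart. No animals are named in the labels, which makes each genotype 1 sample, and no difference below has a test or a replicate check.

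The GAP cells held 5366362 UMIs and the control cells 4001274, with medians of 28963 and 21280 UMIs per cell. Levels are UMIs summed over a set of cells, scaled to the total UMIs of that set (CPM). Intervals are exact 95% intervals (Poisson for a level, conditional binomial for a ratio, Clopper-Pearson for a share), and they cover counting error only. A gene was called when the 2 sets differed at least 2-fold on a log2 scale with 1 CPM added, given at least 10 CPM in either set. The genes of the GAP allele summed to 1592 CPM in GAP cells and 0.2499 CPM in control cells, with Atoh1 and Pou4f3 at 0 UMIs in control cells. The authors' annotation puts 341 cells into 9 named clusters, and clusters 1, 2 and 7, named reprogrammed supporting or hair cells, held GAP cells only. Clusters 5 and 8 carry the name Reprogrammed Unknown, yet 13 of the 26 cells of cluster 5 and 7 of the 17 of cluster 8 were control cells. No UMI of the GAP allele's genes was found in those 20 control cells. The clusters were made from expression in these same cells, so differences between clusters are given as a description.

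The 3 genes were compared by sequence first, because a count matrix can separate the subunits only as far as their transcripts differ. In the GENCODE M21 annotation of GRCm38, Atp1b1 (ENSMUSG00000026576.12) lies on the minus strand of chromosome 1 from 164437109 to 164458355. Atp1b2 (ENSMUSG00000041329.13) lies on the minus strand of chromosome 11 from 69599736 to 69605942, and Atp1b3 (ENSMUSG00000032412.8) on the minus strand of chromosome 9 from 96332655 to 96364442. Aligned coding sequences were 66.3% identical between Atp1b1 and Atp1b2, 61.9% between Atp1b1 and Atp1b3 and 64.3% between Atp1b2 and Atp1b3. The 60 coding bases in which the 3 genes are most alike are shown as the place where reads could most easily be confused. They are read 5′ to 3′ on the coding strand, with bases identical in all 3 genes in capitals. Each stretch crosses an intron, so the genomic span is longer than the sequence: chr1:164453565-164457767 for Atp1b1, chr11:69603501-69605267 for Atp1b2 and chr9:96345841-96364052 for Atp1b3.
Atp1b1: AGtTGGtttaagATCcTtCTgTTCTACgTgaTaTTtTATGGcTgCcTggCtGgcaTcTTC
Atp1b2: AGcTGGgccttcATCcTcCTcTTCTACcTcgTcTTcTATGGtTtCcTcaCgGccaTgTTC
Atp1b3: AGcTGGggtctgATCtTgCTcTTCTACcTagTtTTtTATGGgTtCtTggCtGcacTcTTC
Even here 35 of 60 bases were identical in all 3 genes, and over the whole transcripts no stretch of 31 bases was shared between any pair of them. Reads of that length or more therefore tell the subunits apart.

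2 of the members share sequence with other genes. The 3′ part of Atp1b1 overlaps 617 bases of Nme7 on the opposite strand, which holds 20.2% of the 31-base words of its transcript, and the use of strand in the counting is not given in the sources used here. Nme7 itself was at 12.7 CPM in GAP cells and 10.2 CPM in control cells. Of the 31-base words of Atp1b3, 19.5% also occur in other genes, nearly all of them in Gm1848, which had 1 UMI in GAP cells and 3 in control cells. Atp1b2 shared no such word with any other gene.

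Atp1b1 was the most abundant of the 3 subunits in both genotypes, Atp1b2 came second and Atp1b3 was the scarcest. Per kilobase of exon, Atp1b1 was at 227 CPM, Atp1b2 at 116.3 CPM and Atp1b3 at 19.9 CPM in GAP cells. In control cells the levels per kilobase were 211 CPM for Atp1b1, 122.3 CPM for Atp1b2 and 26.3 CPM for Atp1b3. 1 control cell held 498 Atp1b2 UMIs, and without it Atp1b2 was at 92.5 CPM per kilobase in control cells. As shares of the UMIs of the 3 genes, Atp1b1 made up 57.2% in GAP cells (56.03% to 58.44%) and 53.6% in control cells (52.18% to 55.01%). Atp1b2 made up 38.9% in GAP cells and 41.2% in control cells, and Atp1b3 3.89% in GAP cells and 5.18% in control cells. Without that cell the control shares were 59.6% for Atp1b1, 34.6% for Atp1b2 and 5.78% for Atp1b3, so the direction for Atp1b1 and Atp1b2 turned. The 3 subunits together came to 1222 CPM in GAP cells, and to 1212 CPM in control cells with that cell and 1092 CPM without it.

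Single cells spread far more than the genotypes did. Atp1b1 had a UMI in 96.7% of GAP cells and in 96.1% of control cells. Its level per cell ran from 0 to 3912 CPM with a median of 514 CPM in GAP cells, and from 0 to 3577 CPM with a median of 481 CPM in control cells. Atp1b2 had a UMI in 89.4% of GAP cells, with a median of 248 CPM and a highest cell at 6813 CPM, and in 83.9% of control cells, with a median of 167.1 CPM and a highest cell at 17406.5 CPM. Atp1b3 had a UMI in 72 GAP cells and 74 control cells, so its median was 0 in both genotypes, and its highest cells were at 623 CPM in GAP cells and 929 CPM in control cells. With each cell thinned to 8000 UMIs, which left out 3 control cells, Atp1b2 was seen in 71.1% of GAP cells and 68.9% of control cells, and Atp1b3 in 23.9% of GAP cells and 25.99% of control cells. Atp1b1 was the leading subunit by UMIs in 58.9% of GAP cells and 72.2% of control cells, and Atp1b2 in 33.3% of GAP cells and 21.1% of control cells. Atp1b3 led in 3 GAP cells and 6 control cells.

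**Figure D1:**
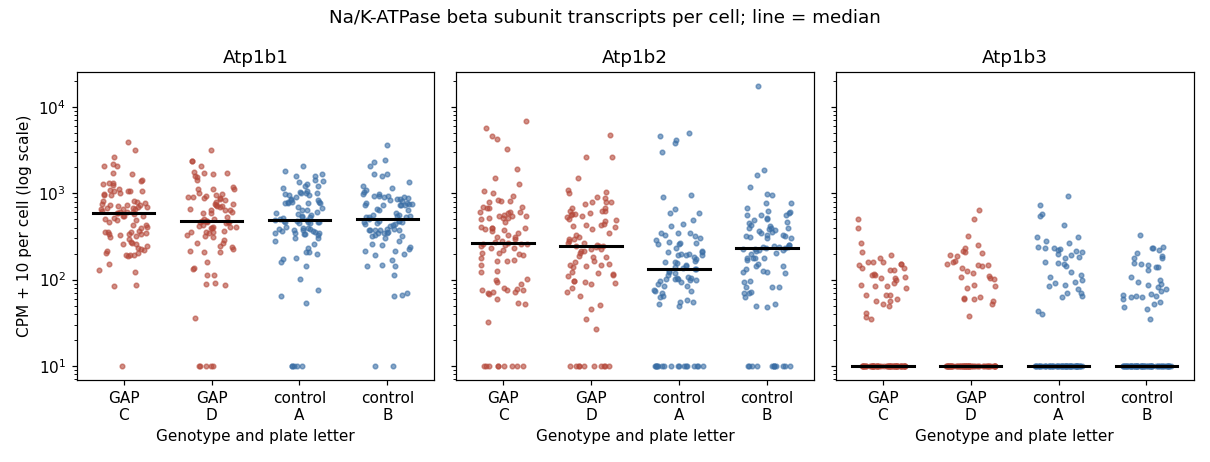
Each point is 1 cell, plotted as CPM plus 10 on a log axis, by genotype and plate letter, and the black line is the median of the letter. Atp1b3 medians lie at 0 CPM in all 4 letters, and 1 control cell of letter B lies far above all others for Atp1b2.

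None of the 3 subunits differed 2-fold between the genotypes, where 19.6% of the 10152 genes measured did. Atp1b1 was at 715 CPM (C) and 681 CPM (D) in the GAP letters and at 609 CPM (A) and 689 CPM (B) in the control letters, so the letters overlapped. Over the genotypes it was at 699.7 CPM in GAP cells and 649.5 CPM in control cells, and the ratio was 1.08 (1.02 to 1.13). Atp1b2 was at 529 CPM (C) and 410.1 CPM (D) against 449 CPM (A) and 549.8 CPM (B), which overlapped as well, also with letter B at 307 CPM without the cell of 498 UMIs. Its levels were 475 CPM in GAP cells and 499.6 CPM in control cells, and the ratio was 0.951 (0.897 to 1.01). That ratio rests on the same control cell: without it, control cells were at 378 CPM and the ratio was 1.26 (1.18 to 1.34). Atp1b3 was at 45.7 CPM (C) and 49.7 CPM (D) against 79.1 CPM (A) and 46.6 CPM (B). The low GAP level of Atp1b3, 47.5 CPM against 62.7 CPM in control cells, 1.32-fold lower with an interval of 1.11 to 1.58, was carried by letter A, and against letter B alone the ratio was 1.02.

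The exceptional cell was a control cell of letter B in cluster 3, named WT Cells 2. It held 498 Atp1b2 UMIs among its 28610, or 10.9% of all Atp1b2 UMIs of the series, with 12 Atp1b1 UMIs and 0 of Atp1b3. It also held 88 of the 98 Kcne1 UMIs of all cells, 35 of Kcnq1, 30 of Esrrb and 5 of the 9 of Bsnd, and Slc12a2 was at 5033 CPM. Kcne1 and Kcnq1 form the potassium channel through which strial marginal cells secrete potassium, Slc12a2 is their sodium-potassium-chloride cotransporter, Esrrb a transcription factor they need and Bsnd a chloride channel subunit. Of the 9 listed marginal cell genes 8 had a UMI in it, with a sum of 11010 CPM, and Hmx2 was at 0, as in every cell. In the rest of cluster 3 the same list summed to 604 CPM. The main summed levels, shares and ratios of Atp1b2 that include this cell are therefore given with and without it. Correlations keep it, as do alternative settings unless they leave out the cell, its letter or the highest cells.

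Atp1b2 was high in 1 cluster. Cluster 8, the 17 cells named Reprogrammed Unknown 2, was at 3454 CPM (3285 to 3630), and its cells ran from 671 to 6813 CPM with a median of 3818 CPM. All other clusters together were at 347 CPM, so cluster 8 was 9.96-fold higher (9.36 to 10.6). Without the exceptional cell they were at 286 CPM and cluster 8 was 12.1-fold higher (11.3 to 12.9). At 2-fold, 10.8% of 10219 genes were higher in cluster 8, and Atp1b2 stood at percentile 98.8 of the ratios. Outside cluster 8, 29 of 324 cells (8.95%) lay above its lowest cell, so the cells overlapped, and 1 lay above its median. At 2000 CPM, that 1 outside cell, the control cell described above, was reached, as were 13 of the 17 inside. Cluster 8 held 34.3% of all Atp1b2 UMIs and 4.82% of all UMIs. Atp1b2 led the subunits in 16 of the 17 cells and made up 77.03% of the UMIs of the 3 genes (75.1% to 78.8%), against 32.5% in the other clusters, or 28.4% there without the exceptional cell. Atp1b1 was 1.48-fold higher there (979 CPM against 662 CPM), and Atp1b3 was at 50.96 CPM in cluster 8, a ratio of 0.894 (0.561 to 1.36) to the other clusters.

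**Figure D2:**
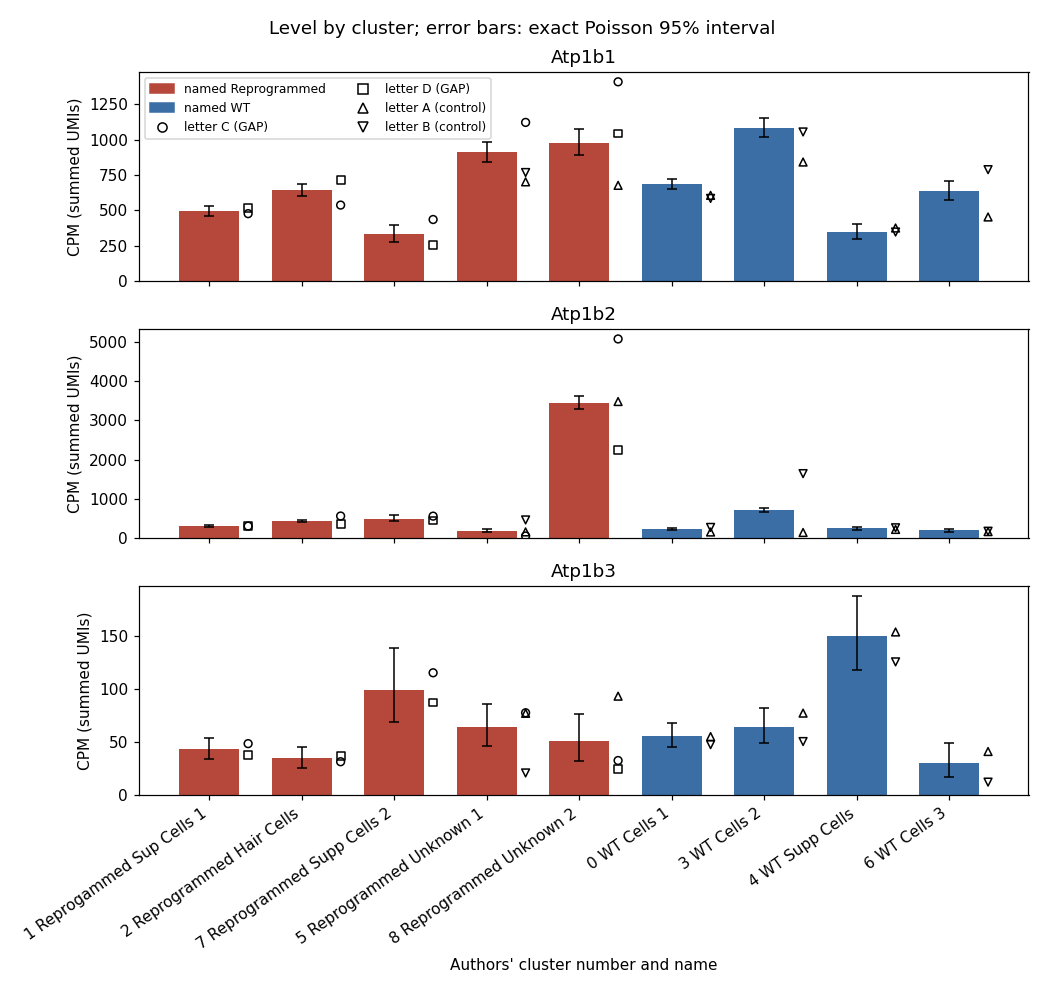
Bars are the summed level of each subunit in CPM by cluster with the exact Poisson 95% interval, red for clusters named Reprogrammed and blue for those named WT. Open symbols are plate letters with at least 5 cells in the cluster. Cluster 8 stands above all others for Atp1b2, and the high letter B point of cluster 3 holds the single control cell with 498 UMIs.

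The high Atp1b2 of cluster 8 was found in cells of both genotypes. The 10 GAP cells were at 3668 CPM (lowest 671, median 3704, highest 6813 CPM), and the 7 control cells were at 3203 CPM (lowest 952, median 3818, highest 4979 CPM). Letters C, D and A gave 5078, 2245 and 3481 CPM, and the single cell of letter B 1859 CPM. The genotypes therefore overlapped cell by cell, with a ratio of 1.15 (1.03 to 1.27). Atp1b1 within cluster 8 was 1.79-fold higher in GAP cells (1228 CPM against 686 CPM in control cells). Atp1b3 was 2.70-fold lower in GAP cells, on 7 UMIs against 16 in control cells, in a comparison where 49.6% of genes differed 2-fold.

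Marker genes of other cell types were measured in the same cells. The marginal cell list summed to 614 CPM in cluster 8, with 7 of 9 genes detected, against 302 CPM in the other clusters. That level of the other clusters includes the exceptional cell, which raises it. In the GAP cells of cluster 8 it was at 295 CPM with 4 of 9 genes detected, and Kcne1, Esrrb, Bsnd and Hmx2 were among those at 0. In the control cells of cluster 8 it was at 990 CPM with 7 of 9 genes, and 92 of its UMIs were Esrrb. All cells of letter A together held 43 Esrrb UMIs. Of those 92, the 1 control cell of letter B therefore held more than the 6 of letter A. The control level of the list thus rests in part on 1 cell. Atp1b2 was thus high in GAP cells in which 5 of the 9 genes had no UMI. The supporting cell list was at 4839 CPM in cluster 8 and 11211 CPM in the other clusters, the hair cell list at 647 and 3148 CPM, and the endothelial and pericyte list at 401 and 75.4 CPM. Of that list's 7 genes, 3 were detected in cluster 8. Of the 3 genes measured in this comparison, 1 was at least 2-fold higher in cluster 8 and 2 were at least 2-fold lower. Their median log2 ratio was -2.12. Pdgfrb and Vtn were at 0 there, and Cdh5 and Cldn5 were at 0 in every cell. The part of these lists in the level of Atp1b2 was not tested.

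Outside cluster 8 the order of the clusters differed by subunit. For Atp1b1 the highest were cluster 3 (1083 CPM), cluster 8 (979 CPM) and cluster 5 (912 CPM), whose neighbouring levels did not differ beyond counting error. Clusters 0, 2 and 6 followed at 685, 644 and 637 CPM, which did not differ from each other beyond counting error either. The levels of clusters named WT include their few GAP cells. In cluster 0, 4 GAP cells held 241 of the 1244 Atp1b1 UMIs, and control letters A and B lay between 583.9 and 605.4 CPM. Its place above cluster 2 thus rests on those GAP cells. In cluster 3, 5 GAP cells held 261 of 1018 UMIs, and letters A and B lay between 841.6 and 1054.7 CPM, around the level of cluster 8. Cluster 1 was at 495 CPM, and clusters 4 and 7, both named as supporting cells, were lowest at 345 and 331 CPM. For Atp1b2, cluster 3 came second at 716 CPM with the exceptional cell and 192 CPM without it. Clusters 7 and 2 were next at 494 and 434 CPM, cluster 1 at 301 CPM, and clusters 4, 0, 6 and 5 lay between 187 and 245 CPM. Atp1b3 was highest in cluster 4 (149.96 CPM) and cluster 7 (99.4 CPM), and between 30.4 and 64.2 CPM in the other clusters. Cluster 7 did not differ beyond counting error from the next, cluster 5 (ratio 1.55, 0.960 to 2.48). In cluster 4, named WT Supp Cells, Atp1b3 led the subunits in 6 of 33 cells and made up 20.3% of their UMIs (16.3% to 24.7%). By summed level, the clusters lowest in Atp1b1 were thus those highest in Atp1b3. Pearson's r of log2(CPM + 1) between the 2 genes over the 9 clusters was -0.49. All 9 points come from the same 4 plate letters.

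**Figure D3:**
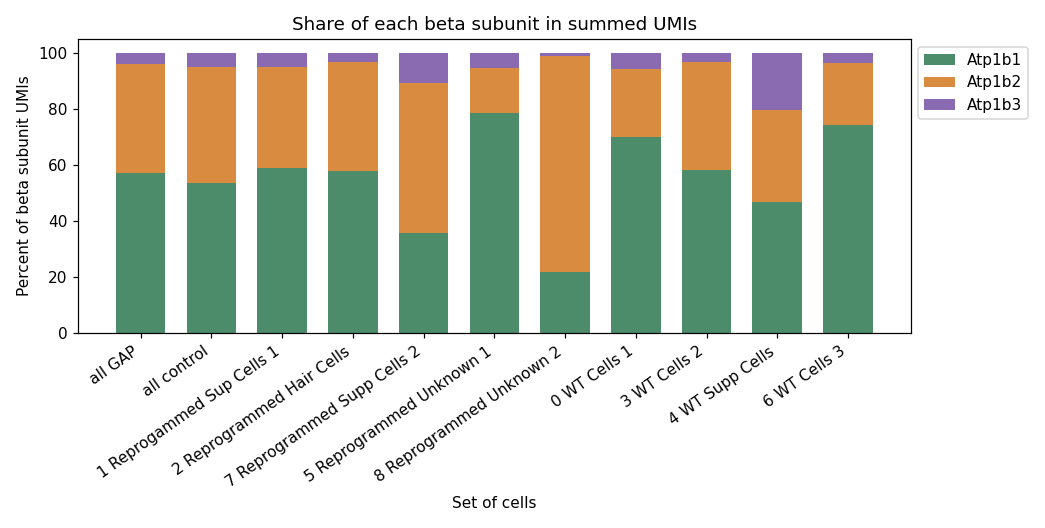
Stacked bars give the percent of the summed UMIs of the 3 genes that each subunit holds, by genotype and cluster, not divided by transcript length, with the exceptional cell included in control cells and cluster 3. Atp1b2 holds the largest share in clusters 8 and 7, and Atp1b3 its largest share in cluster 4.

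Reprogrammed clusters 1, 2 and 7 together held a larger Atp1b2 share and a smaller Atp1b1 share than control cells of clusters named WT. The GAP cells of clusters 1, 2 and 7 were set against the control cells of clusters 0, 3, 4 and 6. Atp1b2 was at 374 CPM in the reprogrammed cells, and at 355 CPM in the control cells with the exceptional cell or 212 CPM without it. The ratio was 1.05 (0.974 to 1.14) with that cell and 1.76 (1.61 to 1.93) without it. The letters did not overlap without it, with 413 CPM (C) and 339.5 CPM (D) against 163.1 CPM (A) and 258 CPM (B), and they did with it, when letter B was at 533 CPM. The median cell was at 254 CPM in the reprogrammed clusters and at 149.6 CPM in these control cells. Atp1b1 was at 539.7 CPM against 639 CPM in the control cells (1.18-fold lower, interval 1.11 to 1.26), and Atp1b3 at 45.2 CPM against 63.9 CPM (1.41-fold lower, interval 1.15 to 1.74). The control level of Atp1b3 was again carried by letter A, with 130 UMIs in 78 cells against 90 in the 80 cells of letter B. Its share was 9.36% in letter A and 5.16% in letter B without the exceptional cell, against 4.72% in the reprogrammed cells. No subunit reached 2-fold in this comparison, where 23.5% of genes did. The share of Atp1b2 was 38.99% in the reprogrammed cells, and in the control cells 33.6% with the exceptional cell and 23.1% without it. That of Atp1b1 was 56.3% in the reprogrammed cells, and in the control cells 60.4% with the exceptional cell and 69.9% without it. The hair cell list summed to 6655 CPM in the reprogrammed cells and 259 CPM in these control cells, the stress list to 6880 and 9398 CPM, and the part of either in the subunit levels was not tested.

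Cluster by cluster the same genes gave these values. Cluster 7, named Reprogrammed Supp Cells 2, had 494 CPM of Atp1b2 against 245 CPM in cluster 4, named WT Supp Cells. That is 2.02-fold higher (1.59 to 2.57), just past the threshold, in a comparison where 21.8% of genes were at least 2-fold higher in cluster 7. Cells of cluster 7 ran from 0 to 1494 CPM with a median of 419 CPM, and cells of cluster 4 from 0 to 1003 CPM with a median of 186.5 CPM, so they overlapped. Atp1b1 differed little between them (331 CPM against 345 CPM), and Atp1b3 was at 99.4 CPM against 149.96 CPM. Globin and stress transcripts moved with this comparison. The erythroid list was at 1173 CPM in cluster 7 and 1.97 CPM in cluster 4. The stress list was at 3490 CPM in cluster 7 and 11811 CPM in cluster 4, with 9 of its 11 genes at least 2-fold lower in cluster 7, and the part of either list in the result was not tested. Cluster 2, named Reprogrammed Hair Cells, had 1.83-fold more Atp1b2 than cluster 0 (434 CPM against 237 CPM), and 2.26-fold more than cluster 3 without the exceptional cell (192 CPM), where 20.7% of genes were at least 2-fold higher in cluster 2. With that cell, cluster 2 was 1.65-fold below cluster 3. For Atp1b1 the ratio of cluster 2 was 0.941 (0.863 to 1.03) to cluster 0 and 0.595 (0.544 to 0.651) to the whole of cluster 3. Cluster 0 includes 4 GAP cells here, which held 241 of its 1244 Atp1b1 UMIs. Its control letters A and B lay between 583.9 and 605.4 CPM, below cluster 2 at 644 CPM, so the direction of that ratio rests on those GAP cells. Against cluster 0, 34.7% of genes differed 2-fold in cluster 2, and against the whole of cluster 3, 32.2% did. Cluster 1 was 1.38-fold lower than cluster 0 for Atp1b1 (495 CPM against 685 CPM), a gap that narrows against control letters A and B of cluster 0. For Atp1b2, cluster 1 was 1.27-fold higher (301 CPM against 237 CPM). In cluster 1, 17.7% of genes were at least 2-fold higher and 11.2% at least 2-fold lower, and neither subunit was among them.

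Within cluster 5, the other cluster named Reprogrammed that held both genotypes, the balance of the subunits differed. The 13 GAP cells had 51.2 CPM of Atp1b2 (lowest 0, median 43.1, highest 155.998 CPM), and the 13 control cells 329 CPM (lowest 0, median 199, highest 1609 CPM). GAP cells were thus 6.42-fold lower (3.88 to 11.2), and 4.63-fold lower without the highest control cell. Against the 6 control cells of letter A alone the ratio was 0.332 (0.168 to 0.649). Atp1b1 was at 1076 CPM in GAP cells and 739 CPM in control cells, so that Atp1b2 made up 4.24% of the UMIs of the 3 genes in GAP cells and 29.6% in control cells. In this comparison 50.4% of genes differed 2-fold, and the supporting cell list was at 2528 CPM in GAP cells and 12400 CPM in control cells. At 13 cells a genotype the minimum of 10 CPM is a few UMIs, so that share also holds counting error. The part of cell type was not tested.

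**Figure D4:**
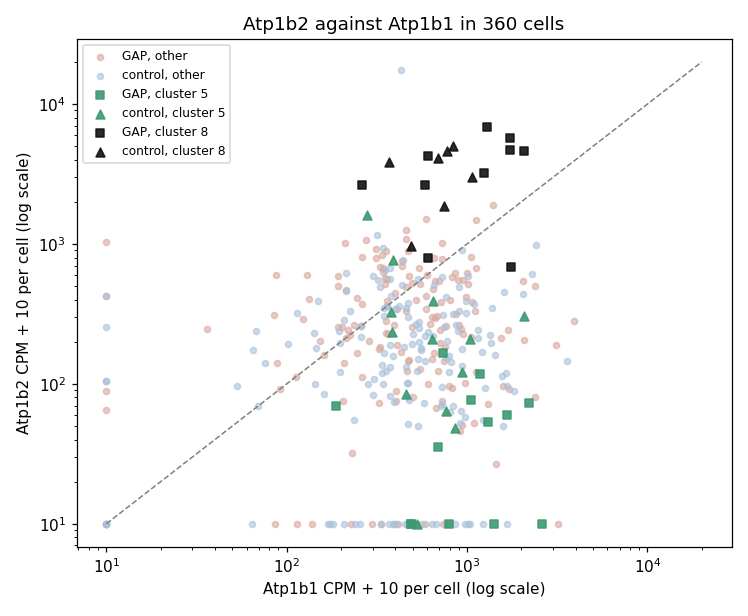
Each point is 1 cell, with Atp1b1 on the horizontal and Atp1b2 on the vertical axis, both as CPM plus 10 on log axes, and the dashed line marks equal levels. Of the 17 cells of cluster 8 (black), 16 lie above the line, and the GAP cells of cluster 5 (green squares) all lie below it.

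15 GAP cells fell in clusters named WT. They had 1666 CPM of Atp1b1 against 639 CPM in the control cells of those clusters, 2.61-fold higher (2.37 to 2.86), where 12.5% of genes were at least 2-fold higher in GAP cells. The GAP cells ran from 0 to 3912 CPM with a median of 1006 CPM and the control cells from 0 to 3577 CPM with a median of 463 CPM, so single cells overlapped. Without the highest cell the ratio was 2.14, with the 5 cells of letter C alone 3.62, and with the 10 of letter D alone 1.82, under the threshold. Over the 15 GAP cells Atp1b2 was at 306 CPM. In the control cells of clusters 0, 3, 4 and 6 it was at 355 CPM with the exceptional cell or 212 CPM without it. The ratio was 0.862 (0.699 to 1.05) with that cell and 1.44 (1.16 to 1.77) without it. The genes of the GAP allele summed to 163.1 CPM in these cells, against 1793 CPM in clusters 1, 2 and 7, and the hair cell list to 853 CPM against 6655 CPM.

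Levels of the subunits were almost unrelated from cell to cell. Spearman's rank correlation between Atp1b1 and Atp1b2 was 0.035 over the 180 GAP cells and 0.049 over the 180 control cells. The rank correlation between Atp1b1 and the summed genes of the GAP allele over GAP cells was -0.30, and for Atp1b2 it was 0.069. With the hair cell list it was -0.21 for Atp1b1 and 0.13 for Atp1b2. Cells of a genotype share plates and differ in depth, and the rank correlation with total UMIs was 0.087 for Atp1b1 in GAP cells and 0.19 in control cells, and 0.015 for Atp1b2 in GAP cells and 0.24 in control cells.

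Genes were ranked by how closely their level followed each subunit over the 9 clusters, as Pearson's r of log2(CPM + 1) among 6758 genes. For Atp1b1 the closest were Kank4 (r = 0.98), Il10rb (0.95), F3 (0.95), Gnas (0.95) and Larp7 (0.94). For Atp1b2 they were Gprc5b (0.93), Dgcr8 (0.93), Prkar1a (0.93), Pnpla3 (0.93) and Lrpap1 (0.92), all of them highest in cluster 8. For Atp1b3 they were Pllp (0.96), Mmp28 (0.95), Zfp532 (0.95), Fam83f (0.94) and Slc34a2 (0.93), all of them highest in cluster 4. Between members, r was 0.37 for Atp1b1 with Atp1b2. With so few clusters and so many genes, high values of r are common.

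FXYD proteins are small membrane proteins that bind the pump and tune its affinity for ions. Of the 7 listed FXYD genes, 3 reached 10 CPM in a genotype, and all 3 were at least 2-fold lower in GAP cells, where 6.61% of all genes measured were. The median log2 ratio of the 3 was -1.38, against 0.098 over all genes measured. Fxyd6 was at 106.5 CPM (C) and 196 CPM (D) against 1169.8 CPM (A) and 1037 CPM (B), so that the letters were far apart. Over the genotypes it was at 147.03 CPM in GAP cells and 1103 CPM in control cells, or 7.50-fold lower (6.95 to 8.10). Fxyd3 was at 44.5 CPM in GAP cells and 117.2 CPM in control cells, which is 2.63-fold lower. Fxyd1, which encodes phospholemman, the FXYD protein best known from heart muscle, was at 111.2 CPM in GAP cells and 243 CPM in control cells, which is 2.18-fold lower. Letters did not overlap for either gene: Fxyd3 was at 39.9 CPM (C) and 50.1 CPM (D) against 94.8 CPM (A) and 139.3 CPM (B), and Fxyd1 at 70.6 CPM (C) and 160.1 CPM (D) against 214 CPM (A) and 271 CPM (B).

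The difference in Fxyd6 was seen in each cluster pair listed here and within clusters 5 and 8. It was at 37.8 CPM in cluster 1 and 152.99 CPM in cluster 2, against 974 CPM in cluster 0 (25.8-fold and 6.37-fold lower). In cluster 7 it was at 52.6 CPM, against 809 CPM in cluster 4 (15.4-fold lower). Within cluster 5 it was at 54.1 CPM in GAP cells and 805 CPM in control cells, and within cluster 8 at 135.1 CPM in GAP cells and 560.4 CPM in control cells. The 15 GAP cells in clusters named WT were at 641 CPM (559 to 731), above every other GAP value given here. Cluster 3, the highest in Atp1b1, was also the highest in Fxyd6 at 1853 CPM. Fxyd3 did not follow this pattern everywhere: it was higher in GAP cells within cluster 5 (62.6 CPM against 8.98 CPM in control cells) and within cluster 8 (201 CPM against 164.3 CPM).

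**Figure D5:**
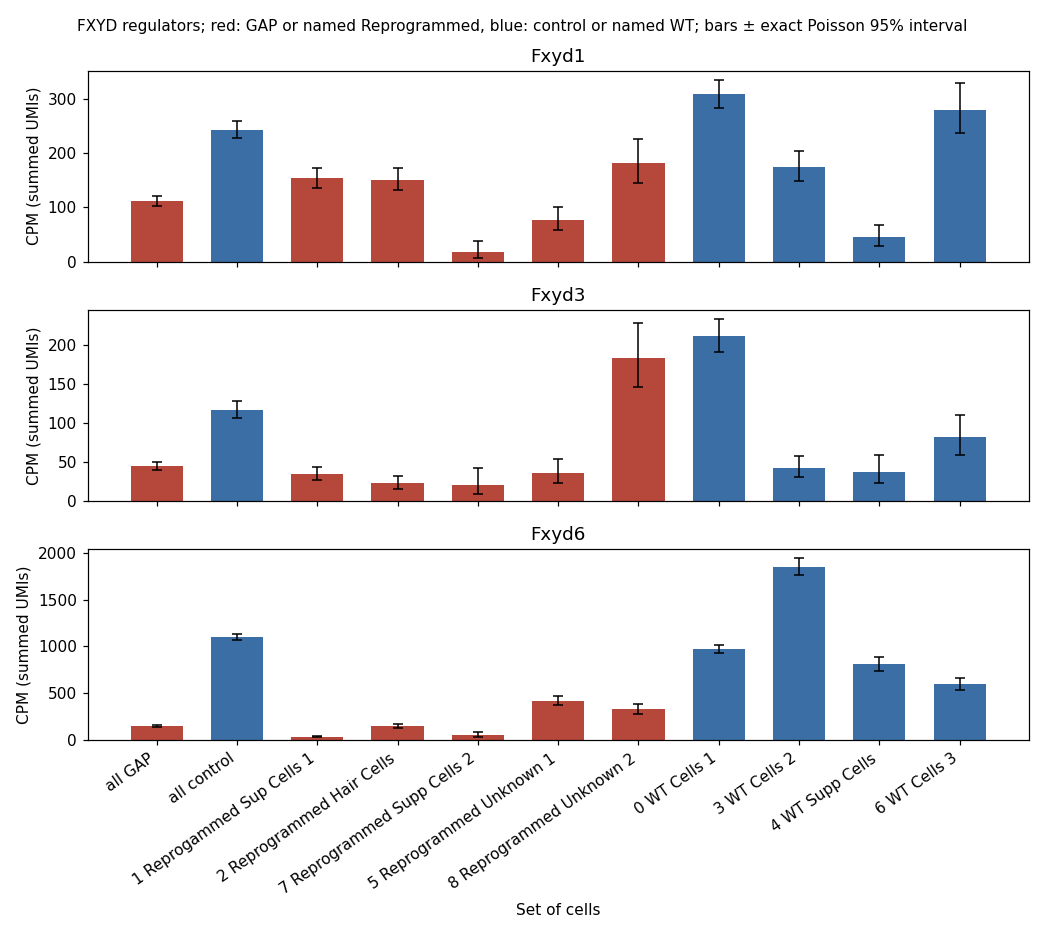
Bars are summed levels in CPM of the 3 FXYD genes measured, with exact Poisson 95% intervals, for all GAP and all control cells and for each cluster. Red marks GAP cells and clusters named Reprogrammed, and blue marks control cells and clusters named WT. Fxyd6 is below 500 CPM in every red bar and above it in every blue one.

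Transporters that draw on the sodium and potassium gradients were mixed. Of 18 listed genes 13 were measured, of which 5 differed at least 2-fold, set against 19.6% of all genes measured, with a median log2 ratio of -0.41. Slc12a7, a potassium-chloride cotransporter, was at 270 CPM in GAP cells and 662 CPM in control cells, 2.46-fold lower. Of the next in UMIs, these stayed within 2-fold: the amino acid transporter Slc38a2 was at 302 CPM in GAP cells and 413 CPM in control cells, and the taurine transporter Slc6a6 at 187 CPM in GAP cells and 312 CPM in control cells. The other genes past 2-fold were picked out after their values were seen. They were the phosphate transporter Slc20a1, 3.64-fold lower in GAP cells, Slc20a2, 2.02-fold higher, the amino acid transporter Slc38a1, 3.03-fold higher, and the sodium-calcium exchanger Slc8a2. Slc8a2 had 424 and 264 UMIs in letters C and D and 0 in letters A and B, which puts it at 128.2 CPM in GAP cells and below 0.7498 CPM, the limit of 3 counts, in control cells.

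Genes of the corticosteroid pathway, through which aldosterone raises pump and sodium channel levels in kidney, were measured for 8 of 10. Sgk1, the kinase that this pathway induces, was 4.40-fold lower in GAP cells (79.6 CPM against 350.4 CPM in control cells). Scnn1g, a subunit of the epithelial sodium channel and picked out after its value was seen, was 3.21-fold higher (18.4 CPM against 5.75 CPM). The other 6 stayed within 2-fold, so that 2 of 8 differed 2-fold where 19.6% of all genes measured did, and the list's median log2 ratio was -0.22. Nedd4l, a ubiquitin ligase, was at 261 CPM in GAP cells and 305 CPM in control cells, Nr3c2, the mineralocorticoid receptor, at 76.6 and 139.96 CPM, and the clock gene Per1 was 1.43-fold lower in GAP cells. Sgk1 is also an early response gene, and the stress list summed to 6949 CPM in GAP cells and 9081 CPM in control cells, a part that was not tested. Of 8 listed relatives and partners of the pump, 1 was measured: Nkain2, which encodes a membrane protein that interacts with it, at 24.04 CPM in GAP cells and 18.7 CPM in control cells.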

How the data were processed

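The authors deposited exon UMI counts per gene and cell, not normalized. The submitters' processing notes name STAR, HTSeq and mm10. For tool versions, annotation, UMI collapsing and strand the sources used here give nothing. All 360 columns were matched to samples by title, no 2 were identical, and every row is a gene. Clusters are the authors' deposited annotation, used as given, and the 19 cells without one enter genotype comparisons only. Cells were sorted singly and no doublet caller was run. Counts were summed per set of cells and scaled to CPM. With 1 sample per genotype no test was made. Scripts used Python 3.11.15, numpy 2.4.6, pandas 2.3.3, scipy 1.17.1, and TMM factors from edgeR 4.0.16 in one alternative, and the ratio step was tested on simulated data. Exon lengths and sequences come from GENCODE M21 on GRCm38, where all 3 gene IDs match with version, as do 40606 of the 48440 IDs of the matrix. Thinning drew 8000 UMIs per cell.

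The members, the 21 lists (175 genes) and the rules were chosen with earlier results of these data known. Named are the members, all measured FXYD genes, the 4 genes with most UMIs of each other pump list, the most used markers of cell type lists, and the 5 closest genes per member over the clusters, among genes at 50 CPM or more in a cluster, with a UMI in at least 20 cells, not held mainly by 1 cell and not predicted. The catalytic alpha subunits and some other listed genes are not reported here. Alternatives were the mean over cells, TMM or median-of-ratios scaling, a minimum of 15000 UMIs per cell, thinning, each letter left out, cells with a cluster only, the top 5 cells of a gene left out, division by length, other filters and a pseudocount of 10 CPM.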

Additional observations from a re-analysis of the deposited data

How the results depend on the processing

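Of the recomputed values, 67 stayed within their limit and 56 moved beyond it. The limit was the counting interval, or a set fold for the counts of genes, which have no interval. A change of sign was recorded only for ratios past 2-fold, and 0 of those changed. The Atp1b2 ratio of the genotypes, which is not past 2-fold, lay above 1 in 7 of 13 alternatives and below 1 in 6. The cause was not tested beyond what each alternative leaves out. The GAP to control ratio of Atp1b1 was 1.02 under median-of-ratios scaling, 1.02 without letter A and 1.15 without letter B. That of Atp1b2 was 1.17 as a mean over cells, 0.894 in cells of at least 15000 UMIs, 1.17 after thinning and 1.04 in cells with a cluster. It was 0.864, 1.06, 0.821 and 1.06 without letters A, B, C and D, 1.33 without the 5 highest cells of each genotype and 1.26 without the cell with most Atp1b2. Its direction therefore depends on these choices. For Atp1b3 it was 1.02 without letter A and 0.601 without letter B.

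Alternatives for cluster 8, cluster 5, Fxyd6, the exceptional cell and the 15 GAP cells in clusters named WT were chosen after seeing the data. The ratio of Atp1b2 in cluster 8 to the other clusters was 10.6 as a mean over cells, 8.59, 12.5, 8.27 and 11.1 without letters A, B, C and D, 10.7 in GAP cells, 9.09 in control cells and 12.1 without the exceptional cell. The ratio of GAP to control cells for Atp1b2 in cluster 5 was 0.332 without letter B. Fxyd6 was 0.178 without letter C and 0.0966 without letter D.

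The Atp1b1 share in GAP cells was 59.7% and 55.4% without letters C and D, 55.8% after thinning and 62.5% per length. That of Atp1b2 in GAP cells was 35.999% as a mean over cells, 35.9% and 41.03% without letters C and D, 40.3% after thinning and 32.02% per length. In control cells Atp1b1 held 63.5% as a mean over cells, 56.2% after thinning and 58.7% per length. Atp1b2 in control cells held 28.5% as a mean over cells, 42.8% and 39.5% without letters A and B, 38.1% after thinning and 34.03% per length. Genes at least 2-fold higher in GAP cells numbered 1320, or 2851 with no filter, 484 at 50 CPM and 831 with 10 CPM added, and those lower 671, or 1313, 349 and 403 under the same settings. No paired analysis was possible because each genotype is 1 sample and the well numbers only name cells. Depth limits Atp1b3 most: at a median of 0 UMIs per cell, absence from a cell says little.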

Other observations

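The 19 cells that the authors' annotation leaves out of the clusters, 17 GAP and 2 control cells, had a median of 49280 UMIs, above that of every cluster. They had 673 CPM of Atp1b1, 232 CPM of Atp1b2 and 28.4 CPM of Atp1b3, and Atp1b1 led the subunits in 15 of them. Their highest Atp1b2 cell was at 573 CPM, below the lowest cell of cluster 8.

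Slc8a2, at 0 UMIs in all control cells, was at 161.2 CPM in cluster 1, 118.4 CPM in cluster 2 and 40.9 CPM in cluster 7, and at no more than 6.65 CPM in each of the other clusters. In the GAP cells of clusters 5 and 8 it was at 11.4 and 12.3 CPM, on 4 and 3 UMIs.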
